A study of Mus musculus with 45 samples.

Results

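Mitochondria make only a small part of their own proteins, and the rest are translated in the cytosol and carried in by a dedicated import machinery. The translocase of the outer membrane (TOM) admits nearly all of them. Membrane-spanning barrels are then handed to the sorting and assembly machinery (SAM). Small chaperones of the intermembrane space pass carrier proteins to the TIM22 complex. Proteins with a presequence go to the TIM23 complex, whose motor (PAM) pulls them into the matrix, where the presequence is clipped off. The genes of this machinery were taken as the protein-coding genes whose symbol starts with *Tomm* or *Timm* followed by a digit. Added to these were *Pam16*, *Dnajc19*, *Grpel1*, *Grpel2*, *Hspa9*, *Chchd4*, *Gfer*, *Samm50*, *Mtx1*, *Mtx2*, *Immp1l*, *Immp2l*, *Pmpca* and *Pmpcb*. The rule found 39 of the 55385 genes in the files, and used no measured value.

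Their RNA was measured in 18 of the series' 45 samples, in which GABPA was removed at 4 stages. GABPA is a transcription factor of the ETS family, known to bind promoters of many genes for mitochondrial proteins. In all embryo groups, the DMSO controls included, both *Gabpa* alleles carried a degron (FKBP F36V with an HA tag, Gabpa-dTAG/dTAG, on a C57BL/6J background). Adding dTAG13 leads to degradation of the tagged GABPA protein, and DMSO is its solvent control. Embryos came from in vitro fertilization with females of 7 to 8 weeks and males of 8 to 12 weeks. Late two-cell embryos received 1 μM dTAG13 or DMSO from 6 h after fertilization for 24 h (3 libraries each). Morulae were treated from 42 h at the same dose (2 each, with no collection time given). E4.5 inner cell masses (ICM), a mixture of epiblast and primitive endoderm freed of the trophectoderm by immunosurgery, were treated from 84 h for 16 h (2 each). The fourth system was a naive mouse embryonic stem cell line, 1 ES-E14-derived clone with the same degron, grown in 2i medium (2iES cells) and given 0.5 μM dTAG13 or DMSO for 24 h (2 each). Dose, duration and culture thus differ between stages, and stage cannot be told apart from them.

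Each library held between 9457933 and 27660132 assigned read counts, and the morulae held the fewest. The study describes the libraries of late two-cell embryos, ICM and 2iES cells as biological replicates, but the labels tie no library to a separate collection or culture. The p-values measure only the spread between these samples. That spread was very unequal. The replicates of E4.5 ICM differed by 1.62 (DMSO) and 1.69 (dTAG13) times what counting alone gives (median gene). The other groups differed by 8.2 to 16.1 times, except 2iES dTAG13 (2.86). Very small changes therefore passed the test in ICM. The 8 epiblast markers, among them *Nanog* and *Sox2*, were each above 1 TPM (a share of transcripts scaled to gene length) on average in the ICM and 2iES DMSO libraries, and the 8 two-cell markers likewise in late two-cell DMSO embryos. In ICM, dTAG13 moved other cell type markers too. The summed level of 8 trophectoderm markers was 90.2 to 97.1 TPM in DMSO and 787 to 788 TPM in dTAG13, with 7 of 8 higher and 1 lower. That of the 8 epiblast markers was 694 to 714 TPM in DMSO and 352 to 358 TPM in dTAG13, with all 8 lower. That of 8 primitive endoderm markers was 437 to 452 TPM and 654 to 660 TPM, with 5 higher and 2 lower. None of the 3 lists had a member at 0 in either ICM group. The part of these shifts in the ICM results below was not tested, and in bulk samples fewer cells of a type and less RNA per cell cannot be told apart. The study reports that epiblast cells were not yet fewer with dTAG13 at the time of collection. In 2iES cells the epiblast sum was 453 to 533 TPM in DMSO and 294 to 322 TPM in dTAG13, with 4 of 8 lower. There 2 of 8 primitive endoderm markers were higher, at a summed level of 1.01 to 1.40 TPM in DMSO and 1.98 to 2.55 TPM in dTAG13. The trophectoderm sum overlapped (118 to 156 and 134 to 140 TPM), with 1 of 8 lower, and *Elf5* was listed at 0 in DMSO. The part of these shifts in the 2iES results was not tested either. No marker of these 3 lists passed in late two-cell embryos or morulae.

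*Gabpa* mRNA, which dTAG13 does not target and which therefore checks neither the labels nor the loss of protein, was higher with dTAG13 in every library. Its 5′ end overlaps *Atp5j* on the other strand, which these unstranded libraries cannot separate. It stood at 106, 116 and 87.3 TPM in the DMSO and 162, 142 and 156 TPM in the dTAG13 late two-cell libraries (log2 fold change 0.52 ± 0.11 SE, adjusted p = 0.0124 in edgeR's quasi-likelihood test). In morulae it was 6.67 and 8.13 against 13.6 and 12.8 TPM (0.74 ± 0.20, adjusted p = 0.152). It was 10.1 and 11.2 against 27.5 and 27.3 TPM in ICM (0.95 ± 0.05, adjusted p = 7.77e-19). In 2iES cells it was 7.37 and 5.76 against 11.3 and 11.1 TPM (0.93 ± 0.13, adjusted p = 0.00136).

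The promoters of the 5 import genes that fell at least 2-fold at every stage but the morula are printed first, since GABPA and other ETS factors bind a core written here as CCGGAAG on either strand (CTTCCGG reversed). Each run covers 100 bases before to 50 bases after the RefSeq transcription start in GRCm38.p6, 5′ to 3′ on the gene's strand, with matches to either form in capitals. *Tomm5*, which fell as far at 2 of these stages, and *Timm17a*, which did so at none, hold no match and are shown for contrast. Within 250 bases before the start, *Grpel1*, *Pmpcb*, *Timm29* and *Timm8b* hold a match but fell 2-fold at no stage. They are not shown, so the runs printed here do not tell how far a match goes with a fall.
Mtx2 (chr2:74825712-74825861, + strand): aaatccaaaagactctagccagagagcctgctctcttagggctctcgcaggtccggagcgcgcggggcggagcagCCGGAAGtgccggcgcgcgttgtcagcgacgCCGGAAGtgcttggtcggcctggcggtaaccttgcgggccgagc
Pmpca (chr2:26389248-26389397, + strand): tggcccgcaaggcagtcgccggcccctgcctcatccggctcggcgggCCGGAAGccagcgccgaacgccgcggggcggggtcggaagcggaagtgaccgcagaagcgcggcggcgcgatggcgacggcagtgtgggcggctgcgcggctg
Timm10 (chr2:84826921-84827070, + strand): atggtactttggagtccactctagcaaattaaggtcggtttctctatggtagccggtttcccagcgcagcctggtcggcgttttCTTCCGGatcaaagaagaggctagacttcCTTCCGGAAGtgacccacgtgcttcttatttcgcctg
Timm10b (chr7:105640345-105640494, + strand): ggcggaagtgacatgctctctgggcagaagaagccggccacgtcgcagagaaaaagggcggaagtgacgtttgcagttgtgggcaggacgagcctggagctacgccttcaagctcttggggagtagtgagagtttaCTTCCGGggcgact
Timm23 (chr14:32201842-32201991, - strand): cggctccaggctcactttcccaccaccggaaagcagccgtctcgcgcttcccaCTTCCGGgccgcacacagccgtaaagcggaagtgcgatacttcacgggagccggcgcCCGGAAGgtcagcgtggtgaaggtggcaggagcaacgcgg
Tomm5 (chr4:45108064-45108213, - strand): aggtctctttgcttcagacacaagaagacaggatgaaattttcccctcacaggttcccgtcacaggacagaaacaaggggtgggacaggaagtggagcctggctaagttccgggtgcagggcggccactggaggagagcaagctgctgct
Timm17a (chr1:135313688-135313837, - strand): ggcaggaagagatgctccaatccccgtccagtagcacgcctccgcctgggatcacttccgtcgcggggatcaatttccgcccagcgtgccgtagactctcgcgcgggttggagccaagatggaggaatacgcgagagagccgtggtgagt

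Removal of GABPA lowered a large part of the import machinery in late two-cell embryos, E4.5 ICM and 2iES cells. In morulae no fall was detectable at this depth and number of libraries. A gene passed where its adjusted p was under 0.05, and was called where it also changed at least 2-fold with a mean FPKM (fragments per kilobase and library size) of at least 1 in either group. At the late two-cell stage 15 of 38 import genes tested passed as lower and 0 as higher, where 7.24% and 1.32% of all genes tested did. In morulae 0 of 38 passed in either direction (0.205% lower and 0.161% higher of all genes). Here 4 import genes had an unadjusted p under 0.05, as did 13.6% of all genes, and DESeq2 called 0 as well. In ICM 31 of 39 passed as lower and 5 as higher, against 38.5% and 38.4% of all genes. In 2iES cells 23 of 39 passed as lower and 6 as higher, against 28.1% and 26.5%. In ICM, where so large a share of all genes passed, the count dropped to 20 lower and 2 higher when all 18 libraries shared 1 estimate of the spread. The share of all genes under that estimate is not given, so these counts have no background beside them. With it, some import genes also passed as higher in morulae, and their number is given with the processing results. Counts of genes that passed in ICM below come from the fit of ICM alone.

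**Figure D1:**
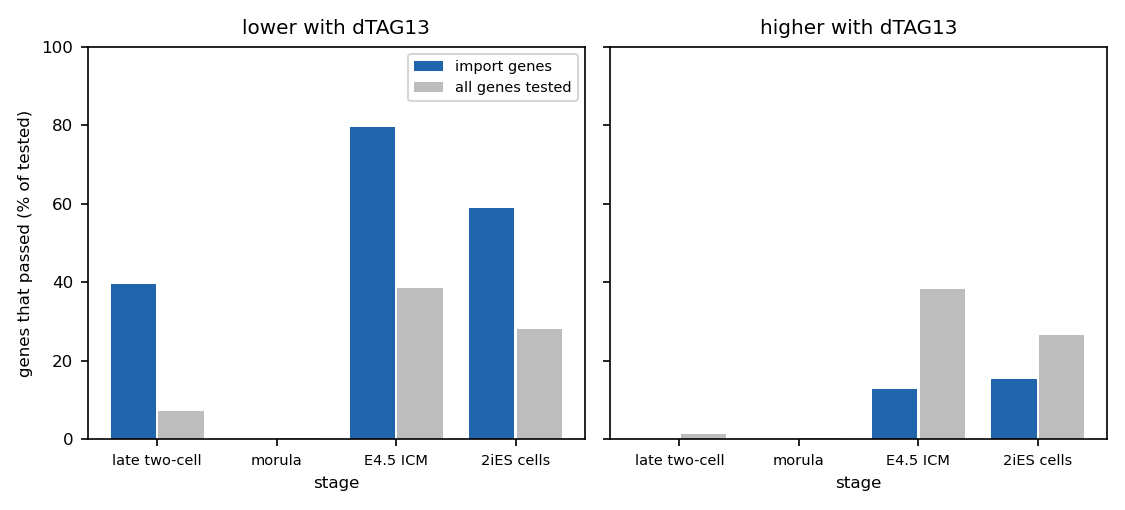
Share of genes that passed the test as lower (left) or higher (right) after dTAG13, by stage, in percent of the genes tested, for the import genes (blue) and for all genes tested (grey). At the late two-cell stage 39.5% of import genes were lower against 7.24% of all genes, and in ICM 79.5% against 38.5%; bars in morulae are at or near 0.

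With the 2-fold limit the counts of called genes were 10 lower at the late two-cell stage (3.63% of all genes), 0 in morulae (0.198%), 9 lower in ICM (13.2%) and 14 lower in 2iES cells (15.6%). Called as higher were 0, 0, 1 and 2 import genes (0.476%, 0.154%, 12.1% and 12.4% of all genes). The median log2 fold change of the import genes was -0.34 at the late two-cell stage, -0.03 in morulae, -0.35 in ICM and -0.59 in 2iES cells, where the medians of all genes tested were 0.02, -0.02, 0.01 and 0.03. On the scale of transcripts, the 39 genes together held 6965 to 7415 TPM in late two-cell DMSO embryos and 4833 to 5082 TPM with dTAG13. They held 7316 and 7446 against 5390 and 5508 TPM in ICM, and 9483 and 8272 against 5268 and 5560 TPM in 2iES cells. In morulae the sums, 8245 and 9216 TPM in DMSO and 8758 and 8453 TPM with dTAG13, overlapped. Gene by gene, every dTAG13 library lay below every DMSO library on the TPM scale for 18 import genes in late two-cell embryos (12.8% of all genes tested), 11 in morulae (23.5%), 32 in ICM (40.0%) and 26 in 2iES cells (40.1%). Every dTAG13 library lay above for 1, 8, 7 and 8 (14.5%, 20.1%, 44.8% and 37.8% of all genes).

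By number of stages, 13 import genes passed as lower in late two-cell embryos, ICM and 2iES cells alike, 11 in 2 of these, 8 in 1 and 7 in none. Of the 12329 genes tested at all 3 stages, 6.38%, 18.8%, 26.2% and 48.6% did so at 3, 2, 1 and 0 of them; 38 import genes are among these, all but *Tomm40l*, which is 1 of the 11. The 13 were *Grpel1*, *Mtx1*, *Mtx2*, *Pmpca*, *Pmpcb*, *Timm10*, *Timm10b*, *Timm13*, *Timm23*, *Tomm22*, *Tomm5*, *Tomm6* and *Tomm70a*. The 7 that passed as lower nowhere were *Dnajc19*, *Gfer*, *Hspa9*, *Immp1l*, *Pam16*, *Tomm20l* and *Tomm7*. Called lower at all 3 were *Mtx2*, *Pmpca*, *Timm10*, *Timm10b* and *Timm23*.

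**Figure D2:**
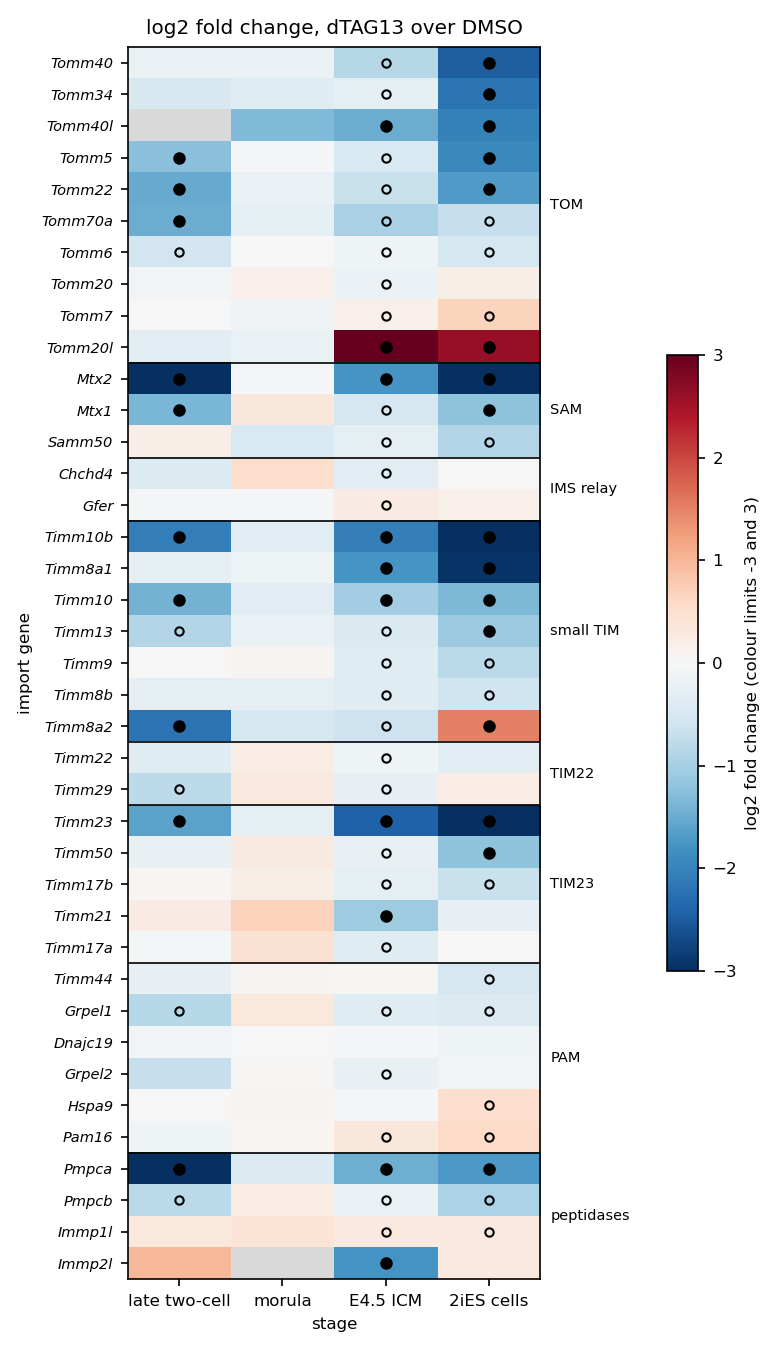
log2 fold change (dTAG13 over DMSO) of the 39 import genes, in rows by complex, at 4 stages, in columns. Blue is lower and red higher, with colours limited to -3 and 3; filled circles mark called genes, open circles genes that passed without the 2-fold limit, and grey cells genes with too few counts to test. The morula column has no circle, and the ICM column has circles on 36 of 39 rows.

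*Timm23*, the channel-forming subunit of the inner membrane translocase for presequence proteins (ENSMUSG00000013701.13, chr14:32180162-32201898, - strand, GENCODE M21), ranked next to *Tomm5* on the mean of the 4 control stages. In ICM controls *Timm23* lay above *Tomm5* (931 against 475 TPM on average). In late two-cell controls *Timm23* lay below *Timm17a* (710 against 1112 TPM). In late two-cell embryos it stood at 691, 672 and 766 TPM in DMSO and 216, 237 and 286 TPM with dTAG13, 2.88-fold lower on the TPM means (log2 fold change -1.60 ± 0.11 SE, adjusted p = 1e-05). In ICM 925 and 938 TPM became 177 and 180 TPM (-2.43 ± 0.03, adjusted p = 4.18e-41), the smallest adjusted p among import genes at that stage. In 2iES cells 935 and 791 TPM became 58.8 and 59.4 TPM, 14.6-fold lower (-3.79 ± 0.12, adjusted p = 1.88e-05). The groups did not overlap at any of these stages, whereas in morulae 754 and 1112 TPM in DMSO enclosed 772 and 760 TPM with dTAG13 (-0.27 ± 0.21, adjusted p = 0.597). Of its 31-base words, 57.7% also occur in the processed copy *Gm10273*, but adding that copy changed little: the sum fell by 1.52, 2.38 and 3.86 on the log2 scale of TPM at the 3 stages.

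The other subunits of TIM23 had smaller fold changes at the late two-cell stage. *Timm17a* pairs with *Timm23* in the translocase and was next on the mean of the 4 control stages. It held 1066, 1133 and 1138 TPM in DMSO and 1144, 1103 and 1115 TPM with dTAG13 in late two-cell embryos (-0.04 ± 0.07, adjusted p = 0.801). It passed as lower only in ICM, from 614 and 642 to 485 and 493 TPM (-0.37 ± 0.03, adjusted p = 9.7e-16). Its paralogue *Timm17b* was lower in ICM (-0.30 ± 0.03, adjusted p = 1.95e-10) and in 2iES cells (-0.67 ± 0.16, adjusted p = 0.01). In late two-cell embryos (0.05 ± 0.14) and in morulae (0.16 ± 0.21) it did not pass. *Timm50*, the presequence receptor of the complex, was called only in 2iES cells, from 94.7 and 61.1 to 30.7 and 33.0 TPM (-1.20 ± 0.20, adjusted p = 0.00249). *Timm21*, a subunit that faces the intermembrane space, was called only in ICM, from 29.9 and 30.8 to 6.87 and 8.83 TPM (-1.07 ± 0.10 on counts, adjusted p = 2.69e-12). Its fall in TPM was larger (3.86-fold) than its fall in counts, as its estimated effective length was 746 bases in DMSO and 1420 bases with dTAG13.

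The small TIM chaperones escort hydrophobic proteins across the intermembrane space. At the late two-cell stage 4 of 7 were lower (7.24% of all genes). In ICM 7 of 7 were lower (38.5%), and in 2iES cells 6 of 7 (28.1%). *Timm10b* (ENSMUSG00000089847.8, chr7:105640056-105643637, + strand), the small TIM that sits on the TIM22 complex, fell from 39.9, 39.6 and 46.0 to 10.6, 7.76 and 9.63 TPM at the late two-cell stage (-2.07 ± 0.22, adjusted p = 0.000156). In ICM it fell from 117 and 120 to 30.2 and 30.7 TPM (-2.05 ± 0.08, adjusted p = 1.62e-23). In 2iES cells it fell from 243 and 201 to 8.86 and 11.3 TPM (-4.50 ± 0.17, adjusted p = 2.1e-05), which was 22.0-fold on the TPM means. No other import gene changed as much in those cells. Of the exonic bases of *Timm10b*, 22.1% overlap other genes, 10.5% of them *Gm45799* on the same strand. How reads were split between these genes was not checked. *Timm10* (ENSMUSG00000027076.10, chr2:84826997-84830213, + strand), which forms a ring with *Timm9*, fell from 369, 375 and 409 to 181, 132 and 136 TPM at the late two-cell stage (-1.43 ± 0.12, adjusted p = 3.37e-05). In ICM it fell from 186 TPM in both controls to 95.3 and 88.4 TPM (-1.05 ± 0.05, adjusted p = 2.05e-21). In 2iES cells 175 and 213 TPM became 68.4 and 73.5 TPM (-1.36 ± 0.14, adjusted p = 0.000441). *Timm9* itself held 137, 120 and 133 TPM in DMSO and 140, 131 and 142 TPM with dTAG13 in late two-cell embryos (0.00 ± 0.10, adjusted p = 0.995). It was lower in ICM (-0.35 ± 0.05) and 2iES cells (-0.80 ± 0.12, adjusted p = 0.00166). *Timm13* was lower at 3 stages and called in 2iES cells, from 776 and 549 to 285 and 304 TPM (-1.08 ± 0.17, adjusted p = 0.00204).

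The *Timm8* paralogues, partners of *Timm13*, differed from one another by stage. *Timm8a1* had 133, 104 and 132 TPM in DMSO and 107, 110 and 97.4 TPM with dTAG13 in late two-cell embryos (-0.29 ± 0.11, adjusted p = 0.144). It fell from 130 and 119 to 37.9 and 37.2 TPM in ICM (-1.77 ± 0.05, adjusted p = 9.37e-29). The 2iES libraries went from 206 and 176 to 23.2 and 23.6 TPM (-2.95 ± 0.12, adjusted p = 2.23e-05). Of its 31-base words 41.8% occur in the copy *Gm9797*, so that the split of reads between both is uncertain. *Gm9797* was assigned 149 TPM on average in late two-cell controls and was itself lower there (-1.10, adjusted p = 0.000321). The sum of both went from between 236 and 302 to between 172 and 181 TPM at that stage. On the log2 scale of TPM it fell by 0.62 there, by 1.73 in ICM and by 2.62 in 2iES cells. *Timm8b* was lower by 0.37 and 0.59 on the log2 scale in ICM and 2iES cells (adjusted p = 4.63e-12 and 0.00332) and had -0.30 ± 0.09 in late two-cell embryos (adjusted p = 0.0743).

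*Timm8a2* was the 1 import gene that passed in opposite directions. It fell from 69.8, 71.2 and 57.8 to 18.2, 12.9 and 13.8 TPM at the late two-cell stage (-2.22 ± 0.18, adjusted p = 2.72e-05). In ICM it fell from 11.6 and 11.5 to 6.85 and 8.55 TPM (-0.62 ± 0.15, adjusted p = 0.000455). In 2iES cells, where its control level was the lowest of the 4 stages, it rose from 1.41 and 1.01 to 3.46 and 3.00 TPM (1.51 ± 0.30, adjusted p = 0.00574). In morulae 61.1 and 73.9 TPM stood against 48.6 and 45.2 TPM (-0.52 ± 0.20, adjusted p = 0.298), without overlap but short of the threshold.

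**Figure D3:**
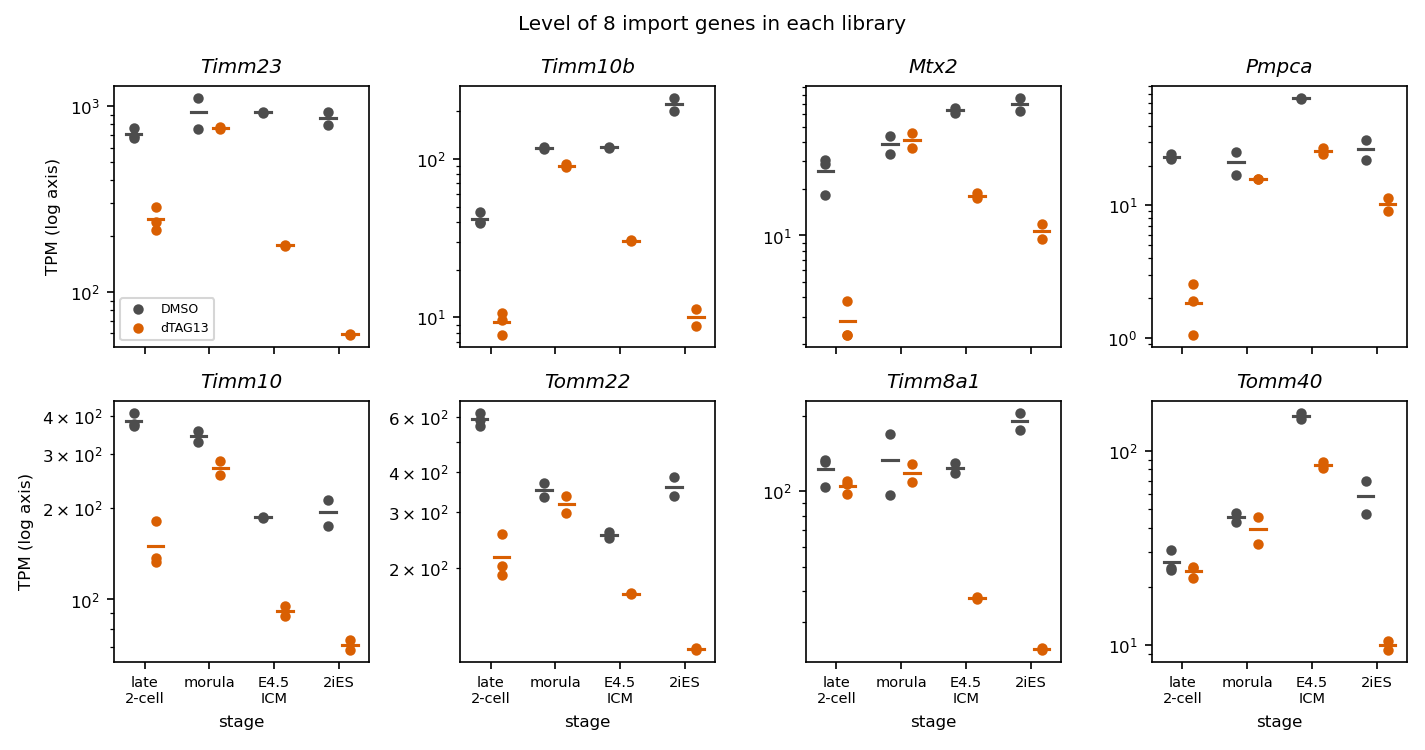
Level of 8 import genes (TPM, log axis) in each library at the 4 stages; grey points are DMSO, orange points dTAG13, and bars the group means (n = 3 late two-cell, n = 2 otherwise). *Timm23*, *Timm10b*, *Mtx2*, *Pmpca*, *Timm10* and *Tomm22* are separated in late two-cell embryos, ICM and 2iES cells, and *Timm8a1* and *Tomm40* in the latter 2 of these. In morulae the groups of *Timm10b*, *Timm10* and *Pmpca* do not overlap either, but none passed the test.

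In the outer membrane, 2 of 3 SAM genes were lower at the late two-cell stage (7.24% of all genes). All 3 were lower in ICM (38.5%) and 2iES cells (28.1%). *Mtx2* (ENSMUSG00000027099.9, chr2:74825803-74878431, + strand), a metaxin of the SAM complex, stood at 30.5, 18.3 and 28.9 TPM in late two-cell DMSO and at 2.30, 2.31 and 3.81 TPM with dTAG13 (-3.67 ± 0.26, adjusted p = 1.44e-05; 9.23-fold on the TPM means). In ICM it fell from 61.2 and 66.1 to 17.3 and 18.7 TPM (-1.76 ± 0.05, adjusted p = 2.7e-27). The 2iES values were 76.6 and 63.5 TPM in DMSO and 9.51 and 11.8 TPM with dTAG13 (-3.03 ± 0.18, adjusted p = 5.97e-05). In morulae it held 33.5 and 43.7 TPM in DMSO and 36.4 and 45.2 TPM with dTAG13 (-0.04 ± 0.22, adjusted p = 0.958). *Mtx1*, the other metaxin, was called in late two-cell embryos (-1.38 ± 0.19, adjusted p = 0.000866) and in 2iES cells (-1.20 ± 0.13, adjusted p = 0.000571). *Samm50*, the barrel that inserts other barrels, had 0.92 to 2.59 TPM over the late two-cell libraries of both groups. It passed as lower in ICM (-0.26 ± 0.04, adjusted p = 2.51e-08) and 2iES cells (-0.89 ± 0.17, adjusted p = 0.00445).

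Of the TOM genes and the cytosolic cochaperone *Tomm34*, 4 of 9 tested were lower at the late two-cell stage (7.24% of all genes). In ICM 8 of 10 were lower (38.5%), and in 2iES cells 7 of 10 (28.1%). The central receptor *Tomm22* fell from 562, 587 and 617 to 189, 203 and 255 TPM at the late two-cell stage (-1.51 ± 0.11, adjusted p = 1.71e-05). In ICM it fell from 259 and 249 to 166 and 165 TPM (-0.68 ± 0.03, adjusted p = 8.34e-21). In 2iES cells 386 and 336 TPM became 111 and 110.0 TPM (-1.71 ± 0.11, adjusted p = 6.97e-05). *Tomm70a*, the receptor for carrier precursors, fell from 11.9, 7.72 and 11.0 to 3.69, 4.00 and 4.25 TPM at the late two-cell stage (-1.48 ± 0.16, adjusted p = 0.000233). It fell by less than 2-fold in ICM (-0.97 ± 0.04) and 2iES cells (-0.68 ± 0.13, adjusted p = 0.00482). The receptor *Tomm20* had -0.07 ± 0.07 at the late two-cell stage (adjusted p = 0.66) and 0.18 ± 0.09 in 2iES cells (adjusted p = 0.135). It passed as lower in ICM alone (-0.18 ± 0.03, adjusted p = 3.96e-08).

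*Tomm40*, the channel of the outer membrane, held 24.9, 24.4 and 30.9 TPM in DMSO and 22.0, 25.3 and 24.9 TPM with dTAG13 in late two-cell embryos (-0.20 ± 0.15, adjusted p = 0.498). It was 145 and 156 against 81.7 and 87.2 TPM in ICM (-0.86 ± 0.04, adjusted p = 2.29e-22). The 2iES values were 69.7 and 47.0 against 9.47 and 10.5 TPM, 5.84-fold lower (-2.46 ± 0.20, adjusted p = 0.000172). Its paralogue *Tomm40l* was lower in ICM, from 8.05 and 8.18 to 3.19 and 3.90 TPM (-1.50 ± 0.12, adjusted p = 1.49e-13). It also fell in 2iES cells, from 12.3 and 12.2 to 3.14 and 2.63 TPM (-2.03 ± 0.17, adjusted p = 0.000194). The exonic bases it shares with *Nr1i3* on the opposite strand (64.3%) cannot be separated without strand, and *Nr1i3* was assigned under 1 TPM on average in every group. *Tomm34* was at 24.3, 23.2 and 32.1 against 20.4, 19.8 and 18.9 TPM at the late two-cell stage (-0.49 ± 0.15, adjusted p = 0.0774). It fell 4.90-fold in 2iES cells, from 30.9 and 21.9 to 5.66 and 5.10 TPM (-2.20 ± 0.19, adjusted p = 0.000227).

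The 3 small TOM subunits moved in different directions. *Tomm5* was the most abundant import gene on the mean of the 4 control stages, though not in ICM. It fell from 1406, 1154 and 1311 to 523, 569 and 588 TPM at the late two-cell stage (-1.26 ± 0.09, adjusted p = 1.36e-05). In 2iES cells it fell from 871 and 830 to 203 and 214 TPM (-1.93 ± 0.10, adjusted p = 3.8e-05), and in ICM by less than 2-fold (-0.45 ± 0.03, adjusted p = 3.89e-15). *Tomm6* was lower by 0.57, 0.13 and 0.52 on the log2 scale in late two-cell embryos, ICM and 2iES cells. It shares 84.2% of its exonic bases with other genes, and 75.95% with the readthrough gene *Gm21981*, which was assigned at most 0.05 TPM on average. *Tomm7* went the other way, from 303 and 301 to 340 and 349 TPM in ICM (0.15 ± 0.03, adjusted p = 1.17e-05). In 2iES cells it rose from 340 and 310 to 474 and 498 TPM (0.66 ± 0.10, adjusted p = 0.00161). *Tomm20l*, a paralogue of *Tomm20* with little RNA at any stage, rose from 4.12 and 3.89 to 23.9 and 22.3 TPM in 2iES cells (2.61 ± 0.20, adjusted p = 0.000131). In ICM it was at 0 counts in both DMSO libraries and at 22 and 26 counts with dTAG13 (2.69 and 3.03 TPM). That is at least 8.62-fold higher when the controls are set to a floor of 3 counts per library.

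Both subunits of the matrix processing peptidase, which removes presequences, were lower at 3 stages. *Pmpca* (ENSMUSG00000026926.14, chr2:26389339-26397122, + strand) fell from 22.4, 24.3 and 22.9 to 2.55, 1.05 and 1.90 TPM at the late two-cell stage, 12.7-fold on the TPM means (-3.73 ± 0.23, adjusted p = 7.25e-06). Only *Mtx2* changed about as much at that stage (-3.67 ± 0.26), and the order of these 2 genes was not tested. In ICM *Pmpca* fell from 65.1 and 64.3 to 27.1 and 24.5 TPM (-1.48 ± 0.04, adjusted p = 8.37e-28). Its 2iES levels went from 31.3 and 21.9 to 9.06 and 11.3 TPM (-1.72 ± 0.18, adjusted p = 0.000389). *Pmpcb* was lower by less than 2-fold at all 3 stages (-0.82 ± 0.14, -0.20 ± 0.04 and -0.96 ± 0.13). Whether the subunits differed was not tested. In morulae *Pmpca* had 17.1 and 25.5 TPM in DMSO and 15.9 TPM in both dTAG13 libraries (-0.41 ± 0.21, adjusted p = 0.429). Of the inner membrane peptidase subunits, *Immp2l* was called in ICM, from 18.8 and 17.8 to 4.26 and 6.15 TPM (-1.80 ± 0.15, adjusted p = 2.45e-13). Its paralogue *Immp1l*, 39.2% of whose 31-base words occur in the copy *Gm8121*, was higher in ICM (0.30 ± 0.04, adjusted p = 7.08e-08) and 2iES cells (0.29 ± 0.10, adjusted p = 0.0467).

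In the PAM motor 0 of 6 genes were called at any stage. Of all genes 3.63%, 0.198%, 13.2% and 15.6% were called lower at the late two-cell stage, in morulae, ICM and 2iES cells. Called higher were 0.476%, 0.154%, 12.1% and 12.4%. With 6 genes, 0 called does not set the motor apart from these shares. The motor's chaperone *Hspa9* (mitochondrial HSP70) held 66.0, 74.4 and 65.6 against 70.0, 76.6 and 72.9 TPM at the late two-cell stage (0.02 ± 0.11, adjusted p = 0.953). It rose from 65.5 and 70.1 to 97.8 and 89.0 TPM in 2iES cells (0.51 ± 0.10, adjusted p = 0.00628). *Pam16*, a J-like regulator of the motor, was higher in ICM (0.35 ± 0.04, adjusted p = 1.72e-09) and 2iES cells (0.57 ± 0.14, adjusted p = 0.0133). *Grpel1*, the nucleotide exchange factor of HSPA9, was lower at 3 stages, by 0.85, 0.37 and 0.41 on the log2 scale. Its paralogue *Grpel2* was lower in ICM (-0.21 ± 0.07, adjusted p = 0.00372) and had -0.69 ± 0.24 at the late two-cell stage (adjusted p = 0.127). *Timm44*, which tethers the motor to the channel, passed only in 2iES cells (-0.50 ± 0.15, adjusted p = 0.0255), and *Dnajc19* at no stage. In the remaining groups, *Timm29* of the TIM22 complex was lower in late two-cell embryos (-0.79 ± 0.16, adjusted p = 0.0104) and in ICM (-0.24 ± 0.09, adjusted p = 0.0123). The carrier translocase *Timm22* was lower in ICM (-0.12 ± 0.04, adjusted p = 0.00611), as was the oxidative folding receptor *Chchd4* (-0.32 ± 0.04, adjusted p = 1.22e-09). The sulfhydryl oxidase *Gfer*, which serves *Chchd4*, was higher in ICM (0.26 ± 0.06, adjusted p = 0.000157).

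In morulae the 3 import genes with the smallest adjusted p were *Chchd4*, *Timm8a2* (above) and *Timm21*. *Chchd4* stood at 22.1 and 29.6 TPM in DMSO and 37.8 and 36.3 TPM with dTAG13 (0.52 ± 0.20, adjusted p = 0.295, 95% confidence interval 0.09 to 0.96). *Timm21* stood at 3.76 and 5.09 against 6.05 and 8.59 TPM (0.69 ± 0.27, adjusted p = 0.305, interval 0.10 to 1.28). Both lay higher in each dTAG13 library, as did 20.1% of all genes tested. With 2 libraries a group the intervals were wide, for *Timm23* from -0.72 to 0.17 on the log2 scale.

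Whether the effect itself differed between stages was tested in 1 fit of all 18 libraries. The log2 fold change was lower at the late two-cell stage than in morulae for 17 of 39 import genes (5.79% of all genes) and higher for 0 (0.68%). For *Timm17a* and *Chchd4*, which are among the 17, no fall passed at the late two-cell stage, and both lay higher in every morula dTAG13 library than in the controls. The differences of log2 fold changes included -3.72 ± 0.33 for *Mtx2* (adjusted p = 1.73e-06), -3.42 ± 0.29 for *Pmpca*, -1.83 ± 0.22 for *Timm10b* and -1.41 ± 0.20 for *Timm23*. Against ICM, the late two-cell effect was lower for 11 import genes (10.4% of all genes), among them *Pmpca* (-2.28 ± 0.28), *Mtx2* (-1.93 ± 0.32) and *Tomm20l*, whose ICM controls are at 0. The 11 dropped to 7 without any 1 of the 4 ICM libraries or without late two-cell dTAG13 library 2 or 3. It was higher for 4 (9.87%), *Immp2l*, *Timm8a1*, *Timm21* and *Timm23*. Between ICM and 2iES cells the effect was deeper in 2iES cells for 12 (7.42%), among them *Timm10b* by 2.40 ± 0.25, *Tomm34* by 1.87 ± 0.27 and *Tomm40* by 1.56 ± 0.25. It was lower in ICM for 4 (9.93%), *Timm8a2*, *Immp2l*, *Timm21* and *Tomm7*. Without single libraries of these stages, 7 to 13 and 1 to 3 were past the threshold. Both comparisons with ICM share the ICM libraries.

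**Figure D4:**
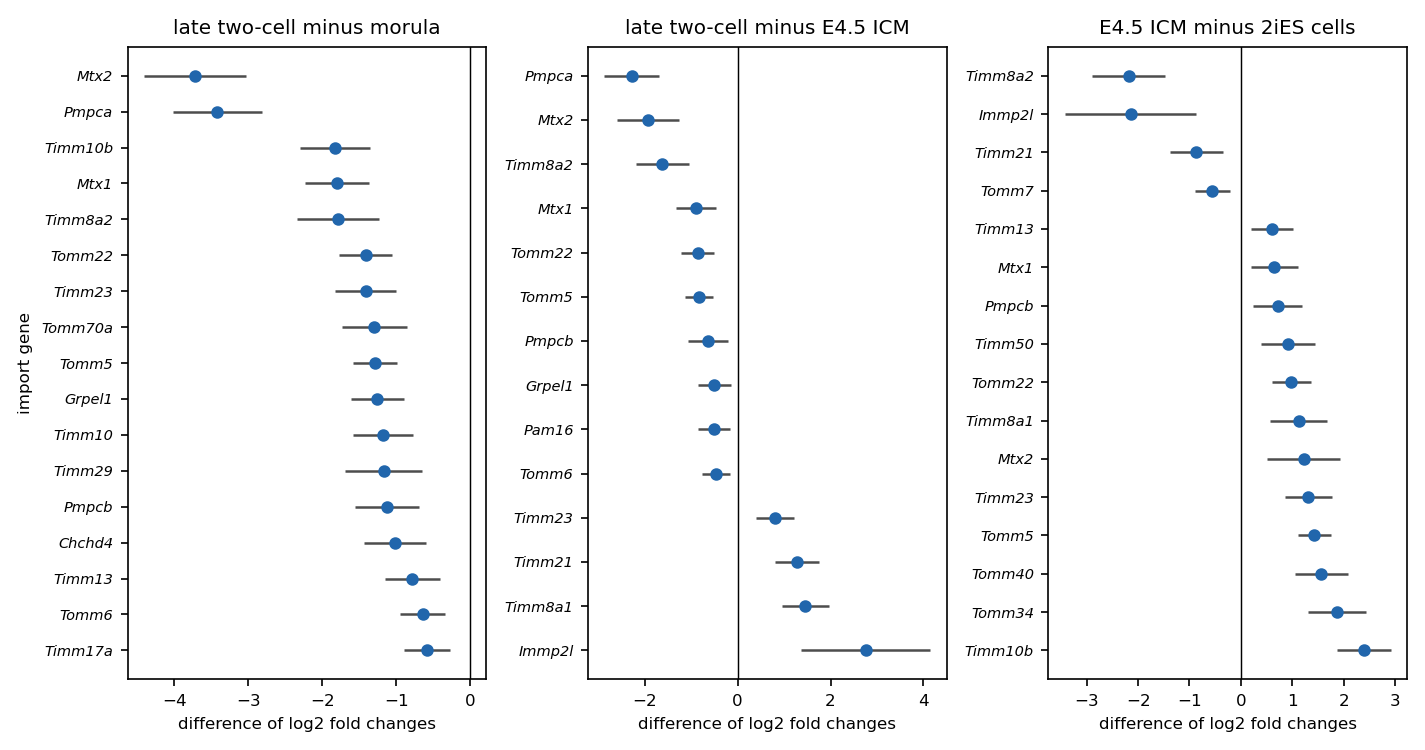
Difference between stages in the log2 fold change with dTAG13 (points) and its 95% confidence interval (lines), for the import genes that passed the test of the difference; points left of 0 had the lower effect at the stage named first. All 17 genes in the left panel lie below 0, led by *Mtx2* at -3.72. *Tomm20l* is left out because its ICM controls are at 0.

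Levels also differed between the control libraries themselves. Between late two-cell and morula DMSO libraries 13 import genes were at least 2-fold higher at the later stage (25.1% of all genes) and 4 lower (31.4%). Between morula and ICM 7 were higher (17.2%) and 7 lower (16.1%). Between ICM and 2iES cells 14 were higher (14.9%) and 3 lower (15.2%), but with scaling by library totals alone 3 were higher and 5 lower. *Dnajc19* rose from between 28.7 and 39.0 TPM at the late two-cell stage to 454 and 464 TPM in morulae (4.11 ± 0.17, adjusted p = 6.1e-13). *Tomm7* rose from between 122 and 136 to 486 and 418 TPM (2.12 ± 0.10, adjusted p = 6e-12). *Samm50* was nearly silent until the morula (1.48 and 1.89 TPM) and reached 61.4 and 63.1 TPM in ICM (4.41 ± 0.25, adjusted p = 1.97e-10). *Immp2l* likewise went from 1.75 and 0.54 to 18.8 and 17.8 TPM (3.92 ± 0.55). *Timm8a2* went the other way, from 61.1 and 73.9 TPM in morulae to 11.6 and 11.5 TPM in ICM (-2.93 ± 0.22, adjusted p = 7.16e-09) and 1.41 and 1.01 TPM in 2iES cells. Stage and library set cannot be told apart in these comparisons.

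Of the 39 import genes, 34 had a promoter entry in RefSeq, and 14 of these (41.2%) held CCGGAAG or its reverse within 250 bases before to 50 bases after the start. The same holds for 9.93% of the 27025 genes with an entry and for 18.4% to 21.1% of the genes that were tested at each stage. The 14 were *Grpel1*, *Mtx1*, *Mtx2*, *Pmpca*, *Pmpcb*, *Timm10*, *Timm10b*, *Timm23*, *Timm29*, *Timm8a2*, *Timm8b*, *Tomm22*, *Tomm34* and *Tomm70a*. At the late two-cell stage 12 of these 14 were lower, with a median log2 fold change of -1.45, against 3 of 20 import genes without a match (-0.17). In ICM 14 of 14 and 14 of 20 were lower (medians -0.65 and -0.25), in 2iES cells 12 of 14 and 10 of 20 (-1.28 and -0.41), and in morulae 0 of 14 and 0 of 19 tested (-0.27 and 0.06). *Timm8a1*, *Tomm40* and *Tomm5*, without a match in this window, are among the deepest falls in 2iES cells. The share lower among all tested genes with or without a match was not counted. These counts therefore cannot tell import genes from other genes with a match. A match of letters is a description of the sequence and not a bound site.

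**Figure D5:**
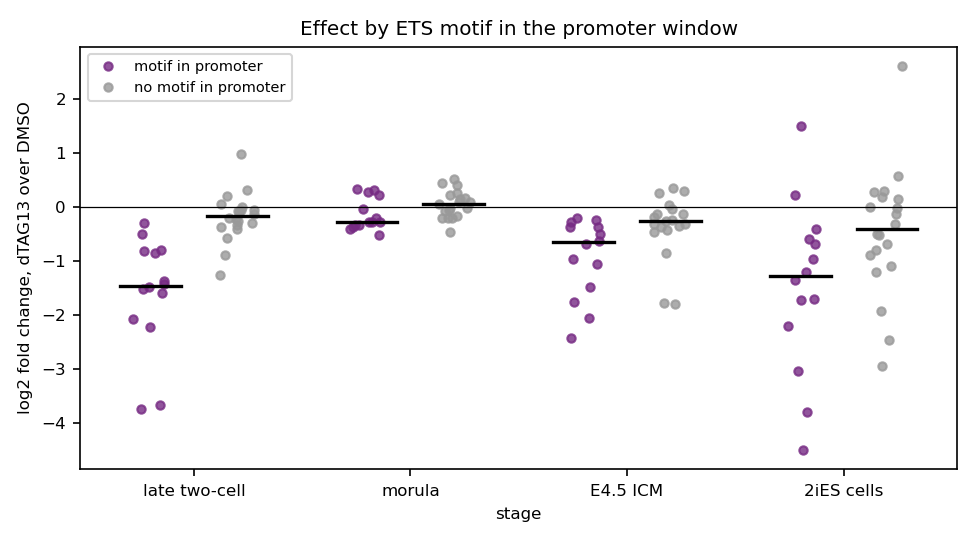
log2 fold change with dTAG13 (y axis) of the import genes with (purple) and without (grey) CCGGAAG or CTTCCGG in the RefSeq promoter window, at each stage, with medians as bars. At the late two-cell stage the medians are -1.45 and -0.17. *Tomm20l* in ICM, whose controls are at 0, is not drawn but counts in the median.

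The wider set of 39 genes that work beside the importers (outer membrane and cristae proteins, other inner membrane proteins, matrix chaperones and proteases) had 6 lower (15.4%, against 7.24% of all genes) and 1 higher (2.56% against 1.32%) in late two-cell embryos. The prohibitin *Phb2* was the 1 called there, from 64.2, 57.8 and 65.4 to 25.5, 23.3 and 33.6 TPM (-1.26 ± 0.15, adjusted p = 0.000308). In morulae 0 passed. In ICM 19 were lower (48.7%, against 38.5% of all genes) and 15 higher (38.5% against 38.4%), so the share higher was that of all genes. In 2iES cells 19 were lower (48.7% against 28.1%) and 4 higher (10.3% against 26.5%). The deepest fall was that of *Romo1*, a small inner membrane protein that acts with TIM23, from 287 and 293 to 17.5 and 12.9 TPM in ICM (-4.26 ± 0.09, adjusted p = 5.17e-32). In 2iES cells it fell from 351 and 266 to 6.74 and 6.25 TPM (-5.39 ± 0.21, adjusted p = 2.19e-05). At the late two-cell stage *Romo1* held 850, 908 and 811 TPM in DMSO and 715, 794 and 773 TPM with dTAG13 (-0.20 ± 0.10, adjusted p = 0.287). Next in ICM were the stress protease *Oma1* (-1.55 ± 0.10, adjusted p = 5.78e-17) and the cristae subunit *Chchd3* (-1.47 ± 0.05, adjusted p = 3.54e-24). In 2iES cells they were *Phb2* (-2.45 ± 0.16, adjusted p = 8.47e-05) and the rhomboid protease *Parl* (-2.09 ± 0.11, adjusted p = 4.38e-05). *Mtch1*, an outer membrane insertase, was called higher in ICM, from 15.6 and 16.1 to 52.6 and 51.0 TPM (1.86 ± 0.06, adjusted p = 2.17e-25), and lower in 2iES cells (-1.12 ± 0.21, adjusted p = 0.00448). The cristae protein *Apoo* was called higher in 2iES cells (1.00 ± 0.11, adjusted p = 0.000491).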

How the data were processed

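RNA was converted with SMART-Seq v4, made into Nextera XT libraries without strand information and sequenced in pairs by the authors. Reads were trimmed with Trimmomatic 0.39 per the labels, then aligned with STAR and quantified with RSEM. The deposited files give, for 55385 genes, RSEM's expected counts, its effective length, TPM and FPKM; the TPM and FPKM values the authors deposited are normalized to length and depth within each library. Of the gene identifiers, 55144 matched GENCODE M21 (54487 with the version), from which symbols and GRCm38.p6 coordinates were taken. Authors' comparisons were not used.

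Expected counts were rounded and tested per stage (dTAG13 against DMSO) with edgeR 4.0.16 in R 4.3.3, by the quasi-likelihood test with TMM scaling, on genes with at least 10 counts in as many libraries as the smaller group, with Benjamini-Hochberg adjustment over all genes tested. Differences between stages and between control stages came from 1 fit of all 18 libraries. Standard errors are the fold change over the root of the test's F. TPM served for levels. The script was tested on simulated counts. Given in full were *Gabpa*, per stage the called import genes (up to 8 per direction), or the 3 with the smallest adjusted p where fewer than 3 were called, the 3 most abundant, paralogues and genes passing in opposite directions; of the partner genes, the 3 called with the largest change. Other import genes are named by complex. The members and all lists were chosen with earlier results of these data known. Alternatives were other scalings, filters and fits, DESeq2 1.42.0, limma 3.58.1 on log2(TPM + 1) or log2(TPM + 0.1), a replicate block and each library left out. Promoters came from RefSeq. Shared sequence was counted as 31-base words that also occur in transcripts of another gene. The count totals limit precision as counting error only. Replicate numbers were not taken as pairs.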

Additional observations from a re-analysis of the deposited data

Results flagged for a closer look

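The results below were singled out because the effect of dTAG13 on an import gene differed between 2 stages by the test of the difference itself (edgeR's quasi-likelihood test in the fit of all 18 libraries, adjusted p under 0.05). They are limited to genes that the naming rule covers, so other import genes that passed this test, *Mtx1*, *Grpel1*, *Timm29* and *Pmpcb* among them, are not listed. Values are differences of log2 fold changes.

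Between the late two-cell stage and the morula, the difference was -3.72 for *Mtx2*, -3.42 for *Pmpca*, -1.83 for *Timm10b* and -1.79 for *Timm8a2*. It was -1.41 for *Timm23* (-1.4125) and -1.41 for *Tomm22* (-1.4137), -1.30 for *Tomm70a*, -1.29 for *Tomm5*, -1.18 for *Timm10* and -1.02 for *Chchd4*. All were thus lower at the late two-cell stage, although *Chchd4* passed in neither stage on its own.

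Between the late two-cell stage and E4.5 ICM, the late two-cell effect was lower for *Pmpca* (-2.28), *Mtx2* (-1.93), *Timm8a2* (-1.62), *Tomm22* (-0.86) and *Tomm5* (-0.83). It was higher for *Immp2l* (2.76), *Timm8a1* (1.45), *Timm21* (1.29) and *Timm23* (0.81). For *Tomm20l* the fitted difference was -7.82, which depends on the small count added to ICM controls at 0 and is no bound. *Immp2l* had under 2 TPM in every late two-cell library, and *Timm8a1* shares reads with *Gm9797*, so both values are uncertain.

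Between E4.5 ICM and 2iES cells, the fall was deeper in 2iES cells for *Timm10b* (2.40), *Tomm34* (1.87), *Tomm40* (1.56), *Tomm5* (1.43), *Timm23* (1.31), *Mtx2* (1.22), *Timm8a1* (1.13) and *Tomm22* (0.98). The effect was lower in ICM for *Timm8a2* (-2.18), *Immp2l* (-2.15) and *Timm21* (-0.87). In ICM these values stand beside the shift in trophectoderm and epiblast markers, whose part was not tested. Groups of 2 or 3 libraries are too small for a test of single outlying libraries.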

How the results depend on the processing

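Values checked for reversal were those of up to 8 called import genes per direction and stage, the 3 morula genes with the smallest adjusted p, and *Timm8a2*. None reversed under any alternative run. Other printed values are not covered, and small ones can change sign. In morulae *Mtx2* had -0.04 on counts and 0.08 as the log2 ratio of TPM means. With the replicate block 15 passed as lower at the late two-cell stage, 31 in ICM and 23 in 2iES cells. It changed no other count by over 1.5 times (passed as higher in 2iES cells 5 with the block, 6 without). Same-numbered libraries correlated by 0.03 to 0.09 (late two-cell), 0.02 (morula), -0.01 (ICM) and -0.18 (2iES cells) in their deviations, so the numbers were not taken as pairs; the crossed pairing of 2iES libraries, added after seeing the data, gave 23 lower and 5 higher. With all 18 libraries in 1 fit, morulae had 3 higher and a median of 0.037, and ICM 20 lower, 2 higher and a median of -0.34. The median log2 fold change was -0.26 (library totals), -0.23 (upper quartile), -0.25 (limma, either added constant) and -0.24 (limma, no filter) at the late two-cell stage, -0.10 (library totals) in morulae, and -0.41 (upper quartile) in 2iES cells. In ICM it was -0.36 (DESeq2, its size factors, or no filter), -0.29 (library totals), -0.32 (limma, 3 forms) and -0.25 (upper quartile). Limma without a filter left 3 higher in 2iES cells. Without a filter, 7 (not 11) import genes had a lower effect at the late two-cell stage than in ICM and 2 (not 4) a lower effect in ICM than in 2iES cells, where a fit of those 2 stages alone gave 8. With library totals, 5 were lower and 3 higher from ICM to 2iES controls. CCGGAAGT was held by 8 of the 34 import genes with a promoter entry (23.5%, against 4.31% of all genes with an entry). GGAAG was held by 29 (85.3%, against 73.85%).

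With each library left out in turn, medians ranged from -0.45 to -0.32 (late two-cell), -0.048 to 0.034 (morula), -0.38 to -0.33 (ICM) and -0.67 to -0.51 (2iES cells). The number of import genes that passed as higher also varied in morulae and 2iES cells, where each such fit left 1 library in a group. Lower effects at the late two-cell stage than in ICM ranged from 7 to 8. Between ICM and 2iES cells, 1 to 3 were below 0 and 7 to 13 above, with 7 above without 2iES DMSO library 1 or dTAG13 library 1. From late two-cell to morula controls, 2 to 4 were lower, with 2 without morula DMSO library 1. The causes were not tested. Depth was lowest in morulae, at 9457933 to 12382705 counts.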
